A study of Mus musculus with 56 samples.

Results

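*Cd4*, *Cd8a*, *Cd8b1*, *Zbtb7b* and *Runx3* are the genes that define the CD4 and CD8 lineages of T cells, and they are described here across helper T cell cultures of WT genotype or lacking *Odc* or *Dohh*, according to their labels. They were chosen by gene symbol, as 5 of the 47937 genes listed, and all 5 passed the low-count filter in both count tables. CD4+ T cells, called naive in the study's methods but not in the labels, were taken from spleen and lymph nodes of C57BL/6 mice by negative selection, which is meant to remove other cell types, and were activated with anti-CD3, anti-CD28 and IL-2, and polarized for 4 days. TH1 cultures received IL-12, IL-2 and anti-IL-4, and TH2 cultures received IL-4, IL-2 and anti-IFN-γ. TH17 cultures received IL-6, TGF-β, IL-1β, anti-IFN-γ and anti-IL-4, and Treg cultures received TGF-β, IL-2, anti-IFN-γ and anti-IL-4. Mice of the KO groups carried the CD4Cre transgene and floxed alleles of *Odc* (gene symbol *Odc1*) or *Dohh*, and WT mice lacked Cre, so the Cre transgene and the deletion cannot be told apart. The transgene uses the promoter of *Cd4* itself, which is active in thymocytes before the CD4 and CD8 lineages separate. The *Odc* table holds 4 WT and 4 KO libraries per subset, with 3 KO libraries in TH2, where replicate 1 was not analysed here, and the *Dohh* table holds 3 WT and 3 KO libraries per subset with WT samples of its own.

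In the thymus, cells that carry both coreceptors settle on CD4 or CD8. CD4 binds MHC class II and CD8 binds MHC class I, and both bring the kinase LCK to the T cell receptor. ThPOK, encoded by *Zbtb7b*, holds the CD4 lineage and represses CD8 genes, whereas RUNX3 silences *Cd4* and drives CD8 and cytotoxic genes. RUNX3 and ThPOK repress each other, and mature helper cells, TH1 cells above all, regain some *Runx3*. CD8 is a dimer, either of the α chain of *Cd8a* with the β chain of *Cd8b1*, the form of conventional CD8+ T cells, or of 2 α chains, a form known from intraepithelial and γδ T cells.

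Positions are given on GRCm38. *Cd4* lies on the minus strand of chromosome 6 (124864692 to 124888221). *Cd8b1* (71322788 to 71337494) and *Cd8a* (71373427 to 71379173) lie on the plus strand of the same chromosome, 35933 bases apart. *Zbtb7b* lies on the minus strand of chromosome 3 (89377644 to 89394776), and an antisense gene overlaps 2.08% of its exon length. *Runx3* lies on the plus strand of chromosome 4 (135120652 to 135177990). No other member shares exon sequence with another annotated gene. Promoter windows from RefSeq (GRCm38.p6), which hold 250 bases before and 50 bases from the start of transcription, were matched for *Cd8a* (1 window), *Zbtb7b* (2) and *Runx3* (2), but not for *Cd4* or *Cd8b1*. They were searched on both strands for TGTGGT, the core letters bound by RUNX proteins, and for the variant spelled TGCGGT. On the other strand the first motif reads ACCACA, whereas the second motif reads ACCGCA. Of all 32851 windows of this kind, 22.4% hold at least 1 match. The 3 windows of the members with a match are shown because *Runx3* is the regulator in the set and they show where its letters stand, with matches in capitals. The distal *Runx3* window (chr4:135120395-135120694, plus strand) holds ACCACA at 134 and at 126 bases before the start. The *Cd8a* window (chr6:71373177-71373476, plus strand) holds ACCGCA at 43 bases after the start. The downstream *Zbtb7b* window (chr3:89387622-89387921, minus strand) holds TGTGGT at 89 bases before the start. The other *Zbtb7b* window and the proximal *Runx3* window hold none of these letters.
Runx3: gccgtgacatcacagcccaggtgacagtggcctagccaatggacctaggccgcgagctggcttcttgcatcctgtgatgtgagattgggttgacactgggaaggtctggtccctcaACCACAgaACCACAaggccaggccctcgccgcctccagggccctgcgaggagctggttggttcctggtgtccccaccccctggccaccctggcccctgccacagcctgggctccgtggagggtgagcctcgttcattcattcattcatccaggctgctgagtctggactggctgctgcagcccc
Cd8a: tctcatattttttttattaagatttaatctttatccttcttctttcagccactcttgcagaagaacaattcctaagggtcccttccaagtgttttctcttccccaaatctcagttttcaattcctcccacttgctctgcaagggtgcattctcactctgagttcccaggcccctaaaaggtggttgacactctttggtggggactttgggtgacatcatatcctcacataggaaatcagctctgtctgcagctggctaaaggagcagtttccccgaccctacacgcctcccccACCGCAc
Zbtb7b: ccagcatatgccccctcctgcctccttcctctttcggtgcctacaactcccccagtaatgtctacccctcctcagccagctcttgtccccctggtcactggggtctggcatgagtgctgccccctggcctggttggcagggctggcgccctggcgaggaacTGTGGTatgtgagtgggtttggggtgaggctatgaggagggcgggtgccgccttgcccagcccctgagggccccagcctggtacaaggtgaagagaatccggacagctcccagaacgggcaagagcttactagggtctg

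Levels are CPM, read counts scaled to a common library size with TMM factors, and levels of different genes are compared per kilobase of exon. Total counts ran from 5905374 to 9145214 per *Odc* library and from 6572148 to 12576933 per *Dohh* library, so that 3 counts, the limit that a count of 0 allows, stand for 0.31 to 0.499 and for 0.226 to 0.473 CPM. All members lay above this limit in every library. The lowest was *Cd8a* with 9 counts in a WT TH2 library. Differences between KO and WT are log2 fold changes with standard errors from edgeR's quasi-likelihood test, adjusted by Benjamini-Hochberg over the genes tested, 13839 in the *Odc* and 13897 in the *Dohh* comparisons. A gene was called at more than 2-fold and adjusted p below 0.05. The labelled deletions are not visible in the gene counts. *Odc1* was called in no subset of the *Odc* table (log2 fold change from -0.40 in TH17 to 0.26 in TH1). *Dohh* was called higher in KO TH1, TH2 and Treg cells of the *Dohh* table, by 1.10 (TH2) to 1.43 (TH1). It was not shown to differ in TH17 cells (0.41, adjusted p = 0.189, edgeR). The paper reports by immunoblot that ODC was deleted in T cells of its KO mice, and that deletion of DOHH lowered hypusine, which DOHH helps to make. Its floxed alleles flank only some exons of each gene. The gene counts used here cover all exons, 47.5% of the *Dohh* exon length is shared with another gene on the same strand, and *Dohh* was also called higher in 3 subsets of the *Odc* table. KO therefore stands for the label of a library throughout. In the *Odc* table, WT replicate 4 had the lowest *Cd4* and the highest *Cd8a* of the 4 WT libraries in every subset, and KO replicate 1 had the highest *Cd4* and the highest *Cd8b1* of the KO libraries in the 3 subsets where it was analysed. Libraries of 1 number and genotype mostly deviated together across subsets, with a correlation over 0.1 in 24 of 24 WT and 20 of 21 KO pairs of the *Odc* table and in 15 of 18 WT and 13 of 18 KO pairs of the *Dohh* table, whereas the fit treats all libraries as independent.

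In WT cells, the coreceptor genes followed the order of helper cells in both tables, with *Cd4* the highest member per kilobase and *Cd8a* the lowest. The 2 factors did not throughout, since mean *Runx3* lay above *Zbtb7b* in TH1 and TH17 cells of both tables and in *Odc* TH2 cells. Mean *Cd4* was 219 ± 31.9 (SD, n = 4) CPM per kilobase in TH1, 207 ± 61.3 in Treg, 173 ± 15.4 in TH2 and 163 ± 36.6 in TH17 cells of the *Odc* table. The *Dohh* table gave 233 ± 7.33 (n = 3) in Treg, 209 ± 19.9 in TH1, 202 ± 5.07 in TH17 and 174 ± 14.1 in TH2 cells. WT cells held far less *Cd8a*, from 0.951 ± 0.267 CPM per kilobase in TH2 to 2.26 ± 0.796 in Treg of the *Dohh* table, and from 1.08 ± 0.751 in TH2 to 4.15 ± 2.85 in Treg of the *Odc* table. *Cd8b1* stood above *Cd8a* in these cells, at 5.95 ± 0.570 (TH1) to 12.4 ± 1.03 (TH17) and at 4.57 ± 2.43 (TH1) to 8.18 ± 0.982 (TH17) CPM per kilobase. *Zbtb7b* was nearly level across WT subsets of the *Dohh* table, at 24.9 ± 0.914 (Treg) to 26.9 ± 2.12 (TH17) CPM per kilobase, and ran from 19.9 ± 1.66 (Treg) to 27.1 ± 3.07 (TH1) in the *Odc* table.

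*Runx3* was the member that separated the WT subsets most clearly. Per kilobase it was 73.0 ± 6.395 CPM in TH1, 42.6 ± 2.89 in TH2, 38.1 ± 5.64 in TH17 and 19.6 ± 4.83 in Treg cells of the *Odc* table (n = 4), and 48.0 ± 4.60 in TH1, 42.5 ± 4.01 in TH17, 24.9 ± 4.07 in TH2 and 18.3 ± 1.81 in Treg cells of the *Dohh* table (n = 3). TH1 was thus highest and Treg lowest in both, while TH2 and TH17 changed places. Over the 4 WT subsets, edgeR's test found a difference for *Runx3* in both tables (adjusted p = 1.22e-10 and 3.39e-05). *Cd4* did not pass in either table (0.267 and 0.463). *Cd8a* (0.0358) and *Zbtb7b* (0.00729) passed in the *Odc* table and *Cd8b1* (0.00301) in the *Dohh* table. These are 3 and 2 of 5 members, beside 71.1% and 40.1% of all genes tested. An edgeR fit with a replicate block within genotype was added after the data were seen. It allows for the shared deviations of libraries of 1 number. In this fit all 5 members passed in the *Odc* table, *Cd4* at adjusted p = 0.000699 and *Cd8b1* at 0.00105, and *Cd8a* passed in the *Dohh* table (0.00187). The share of all genes that passed in it was not computed, so these passes are not read as particular to the members. The pairs of WT subsets were fitted without this block.

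Between single WT subsets, *Runx3* was called lower in Treg than in TH1 cells in both tables, by 1.90 ± 0.15 (SE) and 1.39 ± 0.21 on the log2 scale (adjusted p from edgeR = 3.00e-11 and 3.55e-05), where 19.4% and 15.5% of genes were called. It was lower in Treg than in TH2 cells of the *Odc* table, by 1.12 ± 0.15 (21.1% of genes called), and lower in Treg than in TH17 cells of the *Dohh* table, by 1.21 ± 0.21 (7.07% called). *Runx3* was not shown to differ between TH2 and TH17 in the *Odc* table (-0.16 ± 0.14, adjusted p = 0.372) or between TH1 and TH17 in the *Dohh* table (-0.18 ± 0.21, adjusted p = 0.614). *Cd8a* was called higher in WT TH17 than in WT TH2 cells of the *Odc* table, by 1.83 ± 0.64 (17.5% called), and higher in WT Treg than in WT TH2 cells, by 1.95 ± 0.63. In the *Dohh* table the TH17 to TH2 pair, where 13.7% of genes were called, had no member called. The only call for *Cd8b1* was a higher level in WT TH17 than in WT TH1 cells of the *Dohh* table, by 1.05 ± 0.22 (12.4% called). No member was called between WT TH2 and WT TH1 (8.87% and 6.21% of genes called), between WT TH17 and WT TH1 of the *Odc* table (14.9%), between WT Treg and WT TH17 of the *Odc* table (14.0%) or between WT Treg and WT TH2 of the *Dohh* table (17.1%). *Cd4* and *Zbtb7b* were called in no pair.

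**Figure D1:**
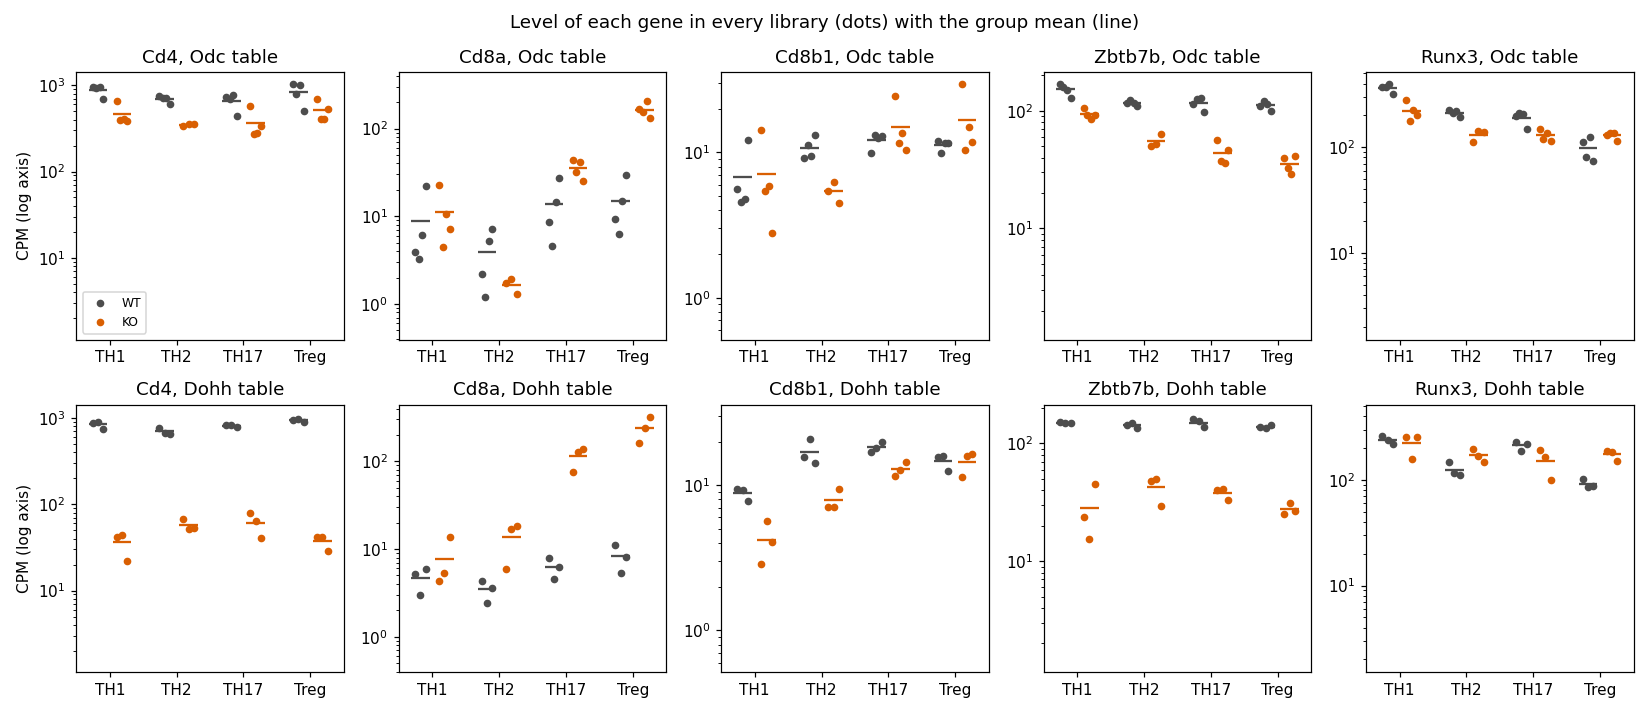
Level of each member in every library, in CPM on a log axis, by subset (x axis), with WT in grey and KO in orange and a line at the group mean. *Cd4* of KO cells lies far under WT in the *Dohh* table (22.1 to 79.7 against 661 to 968 CPM), *Cd8a* of KO cells lies above WT in Treg cells of both tables and in TH2 and TH17 cells of the *Dohh* table and overlaps WT elsewhere, and *Zbtb7b* of KO cells lies under WT in all 8 comparisons, in which 41.1% to 66.6% of all genes do not overlap.

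Against WT cells of the same subset, 0 of 5 members were called in TH1 cells of the *Odc* table, where 21.4% of all genes tested were called, 2 in TH2 (25.1%), 2 in TH17 (15.6%) and 2 in Treg cells (24.0%). In the TH1 comparison, 3 members had an edgeR p below 0.05 after adjustment, which 56.8% of all genes tested had too, and DESeq2 called 0. That threshold alone was passed by 4 members each in TH2, TH17 and Treg cells, and by 59.2%, 47.8% and 59.8% of all genes. Among *Dohh* comparisons 3 members were called in TH1 (29.1%), 4 in TH2 (25.9%), 3 in TH17 (31.4%) and 3 in Treg cells (32.7%). *Zbtb7b* was called in 7 of these 8 comparisons, *Cd4* and *Cd8a* in 5 each, *Cd8b1* in 2 and *Runx3* in 0. An absence of overlap between KO and WT libraries was common among all genes tested. In TH1, TH2, TH17 and Treg cells it held for 43.3%, 61.1%, 41.1% and 45.8% of genes in the *Odc* table and for 50.7%, 62.4%, 61.9% and 66.6% in the *Dohh* table.

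*Cd4*, the coreceptor for MHC class II, was reduced to a small remainder in all *Dohh* KO subsets. In TH1 cells, *Cd4* was 880.3, 897 and 750.3 CPM in the WT libraries and 41.6, 44.5 and 22.1 CPM in the KO libraries. In Treg cells, *Cd4* was 946, 968 and 909.7 CPM in WT and 41.9, 41.8 and 29.1 CPM in KO libraries. These are falls of 4.55 ± 0.26 and 4.65 ± 0.27 on the log2 scale, or 23.4-fold and 25.0-fold (adjusted p = 7.82e-11 and 5.20e-11, edgeR). In TH2 cells, *Cd4* was 766, 678 and 661 CPM in WT and 68.2, 51.9 and 53.1 CPM in KO libraries. In TH17 cells, *Cd4* was 826, 825 and 790.2 CPM in WT and 79.7, 63.9 and 40.2 CPM in KO libraries. The groups did not overlap in any subset, and *Cd4* fell by 3.60 ± 0.25 in TH2 and by 3.73 ± 0.25 in TH17 cells (12.2-fold and 13.3-fold). The size of the fall differed between the subsets (interaction adjusted p = 0.0361, 17.9% of genes called).

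In *Odc* KO cells, *Cd4* was lower by far less. In TH1 cells, *Cd4* was 963, 929.6, 948 and 691 CPM in WT and 656, 399.7, 405 and 389.8 CPM in KO libraries. In TH2 cells, *Cd4* was 742, 720.4, 718 and 604 CPM in WT and 334, 353 and 353 CPM in KO libraries. KO libraries lay below WT libraries in both, and the fold change was -0.93 ± 0.24 in TH1 (adjusted p = 0.00154) and -1.01 ± 0.26 in TH2 (adjusted p = 0.00168, edgeR), of which only the second passed 2-fold. In TH17 cells, *Cd4* was 725, 699.6, 769 and 441 CPM in WT and 571, 273, 277 and 340.0 CPM in KO libraries. In Treg cells, *Cd4* was 1032, 784, 1018 and 506 CPM in WT and 694, 410.0, 407 and 536 CPM in KO libraries. The groups overlapped in TH17 cells through WT replicate 4 and KO replicate 1 and in Treg cells through WT replicate 4 and KO replicates 1 and 4, and the fold changes were -0.85 ± 0.23 and -0.71 ± 0.23 (adjusted p = 0.00459 and 0.0112), neither past 2-fold. Without WT replicate 4, *Cd4* was called in TH1 (-1.03) and TH17 cells (-1.001), without KO replicate 1 it was called in TH1 (-1.17) and TH17 cells (-1.15), and in TH2 cells the call was lost without KO replicate 2 (-0.98) or WT replicate 1 (-0.996). The TH2 call was also lost with the number as a replicate block (-0.89) and in a test of the 2-fold change itself. It stood in 13 of 17 alternatives. The effect on *Cd4* was not found to differ between *Odc* subsets (interaction adjusted p = 0.878). In 1 fit of both tables over 14850 genes, it was weaker in the *Odc* table than in the *Dohh* table in every subset, by 3.59 ± 0.36 (TH1), 2.61 ± 0.36 (TH2), 2.83 ± 0.35 (TH17) and 3.89 ± 0.36 (Treg) on the log2 scale, where 18.5%, 15.7%, 21.4% and 26.2% of genes differed.

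Of 7 genes that act with the coreceptors, 0 or 1 was called in each comparison, where 15.6% to 32.7% of all genes were called, and in so short a list this is not read as a difference from all genes. The summed CPM of *Lck*, *Ptprc*, *Cd3e*, *Cd3g*, *Cd247*, *Zap70* and *Lat*, the kinases, phosphatase, adaptor and CD3 chains of T cell receptor signalling, was 1916 to 3699 in *Dohh* KO and 2934 to 3284 in *Dohh* WT libraries, and 2156 to 3168 and 2477 to 3396 in the *Odc* table. *Ptprc* and *Cd3g* were called once each, both lower, and 6 of 7 had an adjusted p below 0.05 in TH1 and in TH2 cells of the *Odc* table (median log2 fold change -0.47 and -0.69), as had 56.8% and 59.2% of all genes. In bulk RNA, fewer cells of a type and less RNA per cell cannot be told apart.

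Markers of other cells, which the negative selection is meant to remove, were higher in KO cultures. The summed level of the γδ T cell markers *Trdc*, *Tcrg-C1*, *Tcrg-C2*, *Tcrg-V6*, *Sox13* and *Blk* was 568 to 1269 CPM in *Dohh* KO against 21.8 to 58.3 CPM in *Dohh* WT libraries, and 114 to 539 against 14.4 to 58.9 CPM in the *Odc* table. Of these markers, 4, 4, 6 and 6 of the 6 tested were called higher in TH1, TH2, TH17 and Treg cells of the *Dohh* table, and 4, 5, 4 and 5 of the 5 tested in the *Odc* table. Of all genes tested, 14.8%, 14.3%, 17.3% and 17.5% were called higher in the *Dohh* and 10.2%, 11.5%, 8.35% and 13.9% in the *Odc* subsets. *Cd4* had a lower mean in KO cells in all 8 comparisons, whereas *Cd8a* was called higher in 5 of them. In *Odc* TH2 cells the mean sum of these markers was 25.5 CPM in WT and 119.7 CPM in KO, with *Cd8a* at a mean of 3.94 and 1.64 CPM. In TH1 cells, where *Cd8a* overlapped between genotypes, the sum was 32.1 and 229 CPM in the *Odc* and 40.4 and 691 CPM in the *Dohh* table. *Tcrg-V6* was at 0 in the WT TH2 libraries of the *Dohh* table, in all WT groups of the *Odc* table except Treg, and in *Odc* KO TH2 cells. *Trdc*, the constant gene of the δ chain, rose from a mean of 20.7 to 592 CPM in *Dohh* Treg cells (log2 fold change 4.83 ± 0.31) and from 10.2 to 208 CPM in *Odc* Treg cells (4.36 ± 0.28). The constant genes of the αβ receptor were looked at after these values were seen and were not tested. *Trac*, of the α chain, lay at 71.7 to 169 CPM in *Dohh* KO and 296 to 524 CPM in *Dohh* WT libraries, and at 137 to 416 against 299 to 531 CPM in the *Odc* table. *Trbc1* and *Trbc2*, of the β chain, overlapped between genotypes over all subsets, at means of 294 and 383 CPM in *Dohh* KO against 282 and 415 CPM in WT libraries, and of 196 and 253 against 221 and 281 CPM in the *Odc* table. Within single subsets the groups did not overlap in 5 of 16 cases, 4 of them lower in KO. *Trbc1* lay higher in *Dohh* TH2 KO (287 to 357 CPM) than in WT libraries (221 to 240.2 CPM), and lower in *Dohh* Treg (171 to 213 against 249 to 327 CPM) and *Odc* TH2 cells (139 to 170.4 against 185 to 220.1 CPM). *Trbc2* lay lower in *Dohh* Treg (284 to 331 against 413 to 531 CPM) and *Odc* TH1 cells (232 to 277 against 283 to 333 CPM). NK cell markers (7 genes) summed to 5.72 to 120.1 CPM in *Dohh* KO against 1.34 to 4.71 CPM in WT libraries, and to 8.11 to 106 against 2.32 to 11.5 CPM in the *Odc* table, and *Ncr1* was at 0 in WT TH17 cells of both tables. Of those tested, 7, 5, 7 and 7 of 7 were called higher in TH1, TH2, TH17 and Treg cells of the *Odc* table and 2, 2, 3 and 3 of 3 in the *Dohh* table. *Fcgr3*, an Fc receptor gene that myeloid and mast cells also express, made up most of the sum in *Dohh* KO TH17 cells, at a mean of 75.6 CPM, where *Ncr1*, *Klra4*, *Klra8* and *Klra9* stayed at or below 0.249 CPM. It gave means of 43.3 of 64.3 CPM in TH2 and 49.7 of 73.8 CPM in Treg cells of *Dohh* KO libraries. There the means of *Ncr1*, *Klra4*, *Klra8* and *Klra9* stayed at or below 0.356 CPM. In *Dohh* KO TH1 cells *Fcgr3* was 5.30 of 22.8 CPM. The part of these cells in the changes of *Cd4* and *Cd8a* was not tested.

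Markers of non-T cells also moved. Basophil and mast cell markers (7 genes) summed to 44.5 to 1204 CPM in *Dohh* KO against 1.98 to 23.7 CPM in WT libraries, and to 22.5 to 327 against 3.47 to 45.8 CPM in the *Odc* table, with 6 or 7 of 7 called higher in every comparison. Myeloid markers (7 genes) summed to 2.45 to 6328 CPM against 0.299 to 22.3 CPM in the *Dohh* table, and to 3.62 to 501 against 0.729 to 36.5 CPM in the *Odc* table. *Itgam* was at 0 in all groups of the *Dohh* table but was counted in the *Odc* table, for a reason that was not tested. The myeloid sums of the *Dohh* and *Odc* tables therefore do not rest on the same genes. Of 6 myeloid markers tested in each table, 2, 6, 6 and 5 were called higher in the *Dohh* subsets and 1, 1, 6 and 5 in the *Odc* subsets, in the order TH1, TH2, TH17 and Treg. Markers of CD8+ dendritic cells (6 genes) summed to 151 to 975 CPM against 17.2 to 264 CPM in the *Dohh* table and to 51.0 to 352 against 29.6 to 274 CPM in the *Odc* table. Their defining genes *Xcr1* and *Clec9a* were at 0 in all WT groups of the *Dohh* table and reached at most 1.32 and 2.72 CPM in its KO libraries. *Itgax* was called higher in 7 of 8 comparisons. In TH1 cells of the *Dohh* table, *Batf3* alone gave a mean of 495 of 514 CPM in KO and 168 of 202 CPM in WT. Of this list, 2, 1, 4 and 5 of 5 tested were called higher in the *Dohh* subsets and 2, 0, 2 and 3 of 4 in the *Odc* subsets, and 1 was called lower in *Dohh* TH1 cells. B cell markers (5 genes) summed to 10.3 to 486 CPM in KO and 3.20 to 91.8 CPM in WT libraries of the *Odc* table, and to 4.39 to 51.6 and 3.29 to 51.9 CPM in the *Dohh* table, with 5, 5, 1 and 5 of 5 called higher in the *Odc* subsets and 1, 0, 1 and 1 of 4 in the *Dohh* subsets. Among the *Dohh* KO libraries, replicate 1 held the lowest myeloid sum in every subset, 2.45 (TH1), 6.61 (TH2), 269 (TH17) and 186 CPM (Treg). These sums were still above those of all WT libraries, which reached 0.745, 1.16, 22.3 and 17.6 CPM. In KO replicate 1, *Cd4* was 41.6, 68.2, 79.7 and 41.9 CPM, under every WT library. Its *Cd8a* was the lowest of the KO libraries in every subset, at 4.29, 5.98, 76.1 and 162 CPM, within the WT range in TH1 cells and above it in the other 3 subsets. The same replicate also held the lowest basophil and mast cell sum in every subset, at 57.2, 44.5, 314 and 161 CPM. Its γδ T cell sum was the lowest of the KO libraries in TH1 (568 CPM) and the highest in TH2 (721 CPM), TH17 (948 CPM) and Treg cells (1269 CPM). The part of these cells in the changes of the members was not tested.

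*Cd8a*, the α chain of CD8, was called higher in KO TH17 and Treg cells of both tables and in KO TH2 cells of the *Dohh* table. *Cd8a* in Treg cells of the *Odc* table was 9.42, 6.30, 14.9 and 29.7 CPM in WT and 169, 153, 204 and 132 CPM in KO libraries. In Treg cells of the *Dohh* table, it was 11.1, 5.35 and 8.18 CPM in WT and 162, 241 and 322 CPM in KO libraries. No KO library overlapped WT, and *Cd8a* rose 10.98-fold (log2 fold change 3.46 ± 0.54, adjusted p = 7.83e-06) and 29.0-fold (4.86 ± 0.47, adjusted p = 7.80e-08, edgeR). In TH17 cells of the *Dohh* table, *Cd8a* was 7.99, 4.59 and 6.24 CPM in WT and 76.1, 129 and 137 CPM in KO libraries. In TH17 cells of the *Odc* table, it was 8.70, 4.57, 14.7 and 27.2 CPM in WT and 43.6, 31.9, 41.1 and 25.4 CPM in KO libraries. The *Dohh* groups lay apart, with an 18.04-fold rise (4.17 ± 0.46, adjusted p = 6.93e-07), whereas the *Odc* groups overlapped through WT replicate 4, with a log2 fold change of 1.36 ± 0.53 (adjusted p = 0.0370). This *Odc* TH17 call was lost without any 1 of KO replicates 1, 2 or 3 or WT replicates 1, 2 or 3 (fold changes 1.24, 1.41, 1.29, 1.19, 1.07 and 1.39), and held without WT replicate 4 (1.92) or KO replicate 4 (1.49). It was also lost with DESeq2, with edgeR and no low-count filter, and in a test of the 2-fold change itself. The call stood in 8 of 18 alternatives.

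In TH1 and TH2 cells *Cd8a* was at most 22.8 CPM in any library, and only the *Dohh* TH2 comparison was called. In TH2 cells of the *Dohh* table, *Cd8a* was 4.36, 2.43 and 3.59 CPM in WT and 5.98, 16.7 and 18.4 CPM in KO libraries. KO libraries lay above WT, by 1.97 ± 0.47 on the log2 scale (adjusted p = 0.00203, edgeR), a call that was lost in a test of the 2-fold change itself (adjusted p = 0.0576). In TH1 cells of the *Dohh* table, it was 5.22, 2.99 and 5.94 CPM in WT and 4.29, 5.37 and 13.6 CPM in KO libraries, which overlapped (0.73 ± 0.47, adjusted p = 0.202). Over the alternatives this log2 fold change ran from 0.028 to 1.06 and was called in 0 of 14. *Cd8a* was 3.90, 3.27, 6.10 and 22.1 CPM in WT and 22.8, 4.50, 10.6 and 7.14 CPM in KO TH1 libraries of the *Odc* table. In *Odc* TH2 cells, it was 2.20, 1.20, 5.21 and 7.14 CPM in WT and 1.72, 1.91 and 1.29 CPM in KO libraries. Neither *Odc* comparison passed (0.34 ± 0.60 in TH1, adjusted p = 0.647, and -1.23 ± 0.92 in TH2, adjusted p = 0.256). The TH1 value turned negative without KO replicate 1 (-0.27) and was 1.33 without WT replicate 4 (adjusted p = 0.0759). With WT replicate 4 left out of all subsets, *Cd8a* became a call in TH1 cells (1.33, adjusted p = 0.0342, edgeR). The effect of genotype on *Cd8a* differed between subsets in both tables (interaction adjusted p = 0.00232, where 34.8% of genes were called for *Odc*, and 0.000277 for *Dohh*). The *Odc* and *Dohh* effects on *Cd8a* differed in TH2 (-3.19 ± 1.02, *Odc* minus *Dohh*) and TH17 cells (-2.86 ± 0.76), and were not shown to differ in TH1 (-0.39 ± 0.84) or Treg cells (-1.42 ± 0.73, adjusted p = 0.154).

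*Cd8b1*, the β chain, was called higher in no comparison. *Cd8b1* in Treg cells of the *Dohh* table was 15.7, 15.8 and 12.5 CPM in WT and 11.4, 15.9 and 16.4 CPM in KO libraries. In Treg cells of the *Odc* table, it was 12.0, 9.92, 11.6 and 11.7 CPM in WT and 29.6, 10.4, 14.9 and 11.7 CPM in KO libraries. The groups overlapped in both, and neither difference passed (-0.01 ± 0.22, adjusted p = 0.975, and 0.56 ± 0.35, adjusted p = 0.168). In TH1 cells of the *Dohh* table, *Cd8b1* was 9.36, 9.27 and 7.85 CPM in WT and 2.86, 5.68 and 4.08 CPM in KO libraries. In TH2 cells of the *Dohh* table, it was 15.6, 20.9 and 14.1 CPM in WT and 7.13, 7.13 and 9.44 CPM in KO libraries. KO libraries lay below WT in both, and *Cd8b1* fell by 1.09 ± 0.24 and by 1.10 ± 0.22 on the log2 scale (adjusted p = 0.000760 and 0.000529, edgeR). The TH1 call was lost without KO replicate 1 (-0.84) and the TH2 call without WT replicate 2 (-0.95). Neither passed a test of the 2-fold change itself (adjusted p of *Cd8b1* = 0.523 and 0.563, glmTreat of edgeR). In TH17 cells of the *Dohh* table *Cd8b1* was 17.0 to 19.98 CPM in WT and 11.6 to 14.4 CPM in KO libraries (-0.51 ± 0.22, adjusted p = 0.0562). *Odc* libraries held 9.18 to 13.1 CPM in WT and 4.52 to 6.24 CPM in KO TH2 libraries (-0.99 ± 0.41, adjusted p = 0.0415), just short of 2-fold and called without WT replicate 1 (-1.08) or WT replicate 3 (-1.07). Over the alternatives this difference ran from -1.11 to -0.87 and was called in 6 of 17. TH1 and TH17 libraries of the *Odc* table overlapped, at 4.55 to 12.1 against 2.80 to 14.2 CPM and at 9.98 to 13.1 against 10.4 to 24.6 CPM. The effect differed between subsets in the *Dohh* table (interaction adjusted p = 0.0382) and was not shown to differ in the *Odc* table (0.106, or 0.0121 with the replicate block within genotype, which adds *Cd8b1* to the members with an interaction). The *Odc* and *Dohh* effects on *Cd8b1* were not shown to differ in any subset.

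**Figure D2:**
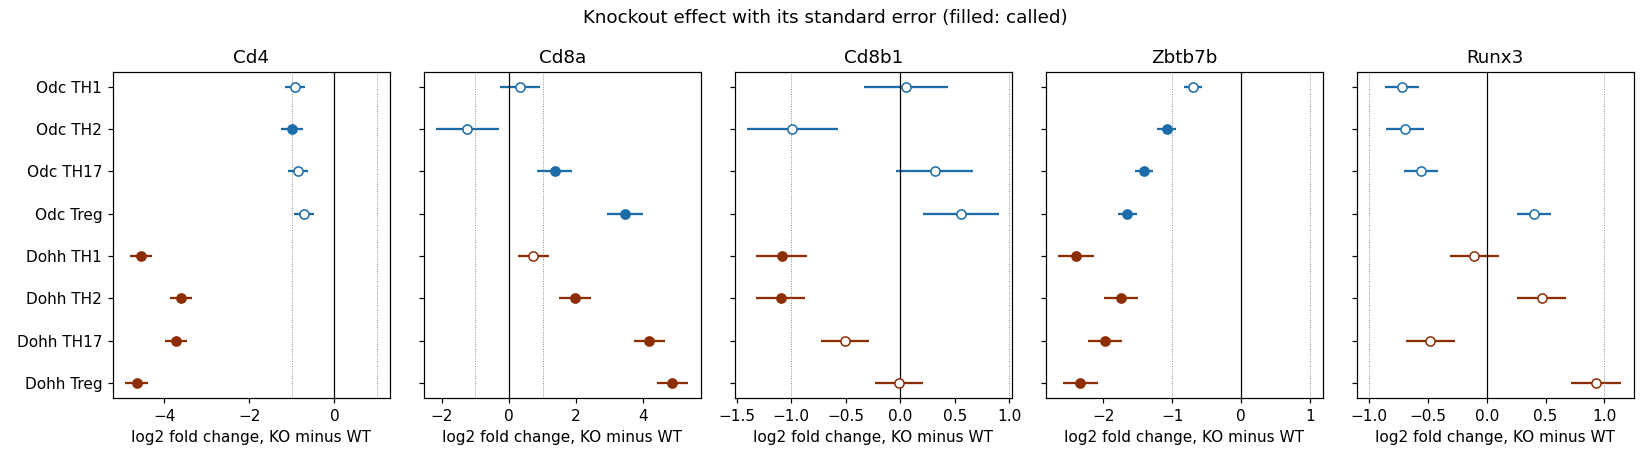
Log2 fold change of KO minus WT for each member with its standard error, for the 4 subsets of the *Odc* table (blue) and of the *Dohh* table (brown), where filled points were called and dotted lines mark 2-fold. *Cd8a* runs from -1.23 to 4.86 while *Cd8b1* stays between -1.10 and 0.56, and *Zbtb7b* is negative in all 8 comparisons.

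The balance of the coreceptor genes was computed for each library per kilobase of exon and is a description with no test. In WT cells, *Cd8b1* exceeded *Cd8a*, with a median ratio of 3.76 in Treg and 7.86 in TH17 cells of the *Dohh* table and of 2.52 and 2.45 in the *Odc* table. A single WT Treg library of the *Odc* table was an exception (0.962). In 3 KO groups the order was the opposite in every library, with medians of 0.161 in *Dohh* Treg, 0.257 in *Dohh* TH17 and 0.198 in *Odc* Treg cells. The groups did not overlap in these 3 comparisons, nor in TH1 (0.738 to 2.60 in KO, 3.24 to 7.60 in WT) and TH2 cells (1.05 to 2.93 and 8.79 to 21.1) of the *Dohh* table, where *Cd8b1* still exceeded *Cd8a* in most KO libraries. KO TH1 cells of the *Odc* table had a median of 1.45. In *Odc* TH17 cells the ratio was 0.814 to 1.38 in KO and 1.16 to 7.04 in WT libraries, which overlapped. In TH2 cells of the *Odc* table the α chain stayed the minor one, with a ratio of 7.73 to 8.58 in KO libraries.

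*Cd8a* and *Cd8b1* together made up 4.53% to 5.49% of the 3 coreceptor genes in WT Treg cells of the *Dohh* table and 83.4% to 93.2% in KO Treg cells. In TH17 cells of that table the share was 6.19% to 7.19% in WT and 59.2% to 82.6% in KO libraries. In TH1 and TH2 cells it was 23.2% to 54.2% and 27.6% to 46.5% in KO libraries, against 3.08% to 3.59% and 5.82% to 8.08% in WT libraries. KO libraries thus lay above WT in all 4 *Dohh* subsets, and *Cd4* was still the larger part in most TH1 and in all TH2 libraries. In the *Odc* table the share reached 25.0% to 39.6% in KO Treg cells against 4.00% to 11.3% in WT cells, and 14.2% to 23.0% in KO TH17 cells against 4.83% to 12.9%. It overlapped in TH1 (3.83% to 8.87% in KO, 1.69% to 7.67% in WT) and TH2 cells (3.75% to 5.13% in KO, 3.56% to 6.73% in WT).

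**Figure D3:**
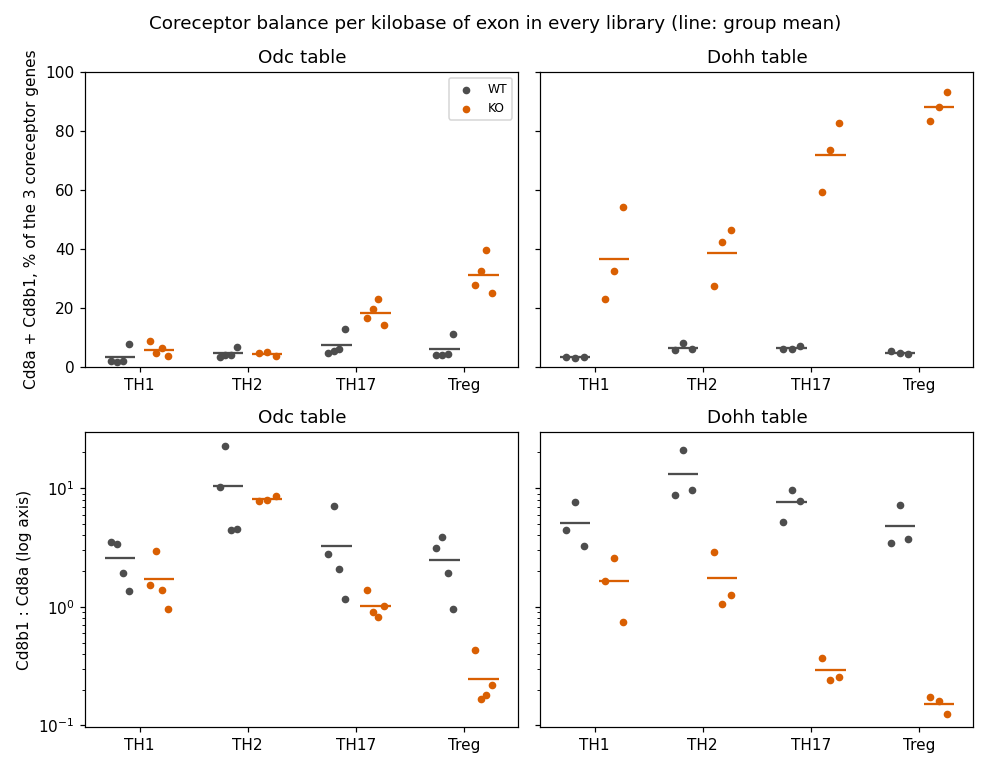
Coreceptor balance per kilobase of exon in every library, by subset, with WT in grey, KO in orange and a line at the group mean. The upper row shows *Cd8a* plus *Cd8b1* as a percentage of *Cd4*, *Cd8a* and *Cd8b1*, which reaches 83.4% to 93.2% in *Dohh* KO Treg cells, and the lower row shows the *Cd8b1* to *Cd8a* ratio on a log axis, which is lowest in KO Treg cells of both tables.

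*Zbtb7b*, which encodes the CD4 lineage factor ThPOK, was lower in KO cells in every comparison. *Zbtb7b* in *Dohh* Treg cells was 137, 135 and 145 CPM in WT and 25.3, 30.9 and 26.6 CPM in KO libraries. In TH1 cells of the *Dohh* table, it was 152, 148 and 149 CPM in WT and 23.8, 15.5 and 45.6 CPM in KO libraries. The groups lay well apart, although KO TH1 replicate 3 held the highest level of its group, and *Zbtb7b* fell by 2.33 ± 0.25 in Treg and by 2.39 ± 0.26 in TH1 cells (adjusted p = 2.57e-07 and 3.36e-07, edgeR). In TH2 cells, it was 142, 148 and 136 CPM in WT and 47.9, 49.9 and 29.4 CPM in KO libraries. In TH17 cells, it was 159.8, 154 and 137 CPM in WT and 40.2, 41.4 and 33.1 CPM in KO libraries. These falls of 1.74 ± 0.25 and 1.97 ± 0.25 (3.35-fold and 3.93-fold) were called too, and the *Dohh* effect was not shown to differ between subsets (interaction adjusted p = 0.385).

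Among *Odc* subsets the fall of *Zbtb7b* differed (interaction adjusted p = 0.000992). In Treg cells, *Zbtb7b* was 109, 122, 115 and 99.8 CPM in WT and 39.5, 32.5, 29.0 and 40.9 CPM in KO libraries. In TH17 cells, it was 113, 127, 127 and 97.1 CPM in WT and 56.1, 37.3, 35.6 and 46.3 CPM in KO libraries. KO libraries lay below WT in both, by 1.65 ± 0.13 (3.13-fold, adjusted p = 2.09e-10) and 1.40 ± 0.13 (2.64-fold, adjusted p = 1.64e-08, edgeR). In TH2 cells, it was 116, 124, 117 and 109 CPM in WT and 50.2, 51.9 and 63.7 CPM in KO libraries. In TH1 cells, it was 168, 160.5, 149 and 129 CPM in WT and 105, 92.1, 85.7 and 91.8 CPM in KO libraries. No KO library overlapped WT, and the fold change was -1.08 ± 0.14 in TH2, which was called, and -0.70 ± 0.13 in TH1 cells (adjusted p = 5.99e-05), which did not reach 2-fold. The *Odc* and *Dohh* effects differed in TH1 cells (1.68 ± 0.26, *Odc* minus *Dohh*, adjusted p = 9.09e-06) and were not shown to differ in TH2 (0.68 ± 0.27), TH17 (0.52 ± 0.26) or Treg cells (0.64 ± 0.26).

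*Runx3*, the CD8 lineage factor, was called in no comparison, yet its difference between KO and WT depended on the subset (interaction adjusted p = 0.000237 for *Odc* and 0.00679 for *Dohh*). In Treg cells of the *Dohh* table, *Runx3* was 102, 85.8 and 87.3 CPM in WT and 187, 185 and 153 CPM in KO libraries. In Treg cells of the *Odc* table, it was 113, 81.1, 124 and 74.3 CPM in WT and 129, 136, 137 and 115 CPM in KO libraries. The first pair of groups lay apart (0.93 ± 0.21, adjusted p = 0.000926) and the second overlapped (0.40 ± 0.15, adjusted p = 0.0198, edgeR), and both stayed under 2-fold. In TH1 cells of the *Odc* table, *Runx3* was 370.1, 374, 397 and 321 CPM in WT and 281, 179, 223 and 202 CPM in KO libraries. In TH2 and TH17 cells of that table it ranged from 193 to 224 CPM and from 149 to 211 CPM in WT, and from 112 to 144 CPM and from 115 to 147 CPM in KO libraries. KO libraries lay below WT in all 3, where 41.1% to 61.1% of all genes did not overlap either, by -0.72 ± 0.14, -0.70 ± 0.16 and -0.56 ± 0.14 (adjusted p = 0.000151, 0.000513 and 0.00279). The *Dohh* values were -0.11 ± 0.21 in TH1 (157 to 256 CPM in KO, 217 to 263 CPM in WT), 0.47 ± 0.21 in TH2 (148 to 198 CPM against 110.4 to 148 CPM) and -0.48 ± 0.21 in TH17 cells (99.7 to 191 CPM against 189.7 to 227 CPM), none with an adjusted p below 0.05. The *Odc* and *Dohh* effects on *Runx3* differed in TH2 cells (-1.15 ± 0.26, *Odc* minus *Dohh*, adjusted p = 0.00201).

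The ratio of *Zbtb7b* to *Runx3* per kilobase, a description with no test, was highest in WT Treg cells, at 1.20 to 1.48 in the *Dohh* table and 0.826 to 1.34 in the *Odc* table. In KO Treg cells it was 0.121 to 0.156 and 0.190 to 0.319. KO and WT libraries of the *Dohh* table did not overlap in any subset, with 0.0831 to 0.161 against 0.515 to 0.614 in TH1, 0.177 to 0.262 against 0.860 to 1.15 in TH2 and 0.189 to 0.297 against 0.557 to 0.727 in TH17 cells. *Odc* libraries overlapped in TH1 cells, with 0.334 to 0.460 in KO and 0.336 to 0.407 in WT libraries, where both genes were lower together. They lay apart in TH2 (0.323 to 0.412 against 0.464 to 0.524) and TH17 cells (0.234 to 0.359 against 0.515 to 0.582).

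**Figure D4:**
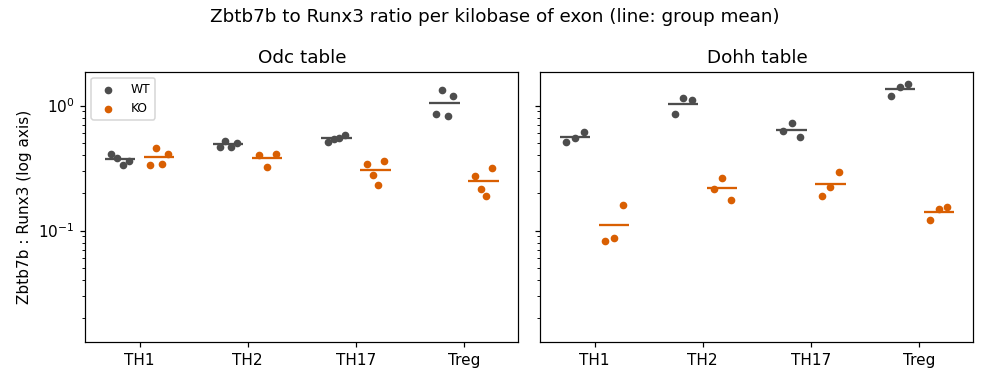
Ratio of *Zbtb7b* to *Runx3* per kilobase of exon in every library, on a log axis, by subset, with WT in grey, KO in orange and a line at the group mean. WT Treg cells have the highest ratio (1.20 to 1.48 and 0.826 to 1.34), and KO libraries lie below WT in every group except TH1 of the *Odc* table.

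Other factors of the lineage choice were called in shares that lay on both sides of those of all genes tested, of which 15.6% to 25.1% were called in the *Odc* and 25.9% to 32.7% in the *Dohh* comparisons. Of 16 such genes, 1 was called higher in each *Odc* subset and 1, 1, 2 and 1 lower in TH1, TH2, TH17 and Treg cells (median log2 fold change -0.11, -0.16, -0.17 and -0.28). For the *Dohh* subsets 1, 2, 1 and 1 were called higher and 5, 6, 5 and 7 lower (medians -0.59, -0.59, -0.57 and -0.69). The median of all genes tested lay between -0.002 and 0.07 in the *Odc* and between 0.01 and 0.02 in the *Dohh* comparisons. *Ets1*, a T cell transcription factor, was called lower in all 8 comparisons, by 1.16 (*Odc* Treg) to 1.55 (*Odc* TH2) on the log2 scale. *Tcf7* and *Lef1*, which encode the HMG-box factors TCF1 and LEF1 of T cell development, were called lower in all 4 *Dohh* subsets, *Tcf7* by 2.59 (Treg) to 4.08 (TH2) and *Lef1* by 1.29 (TH2) to 3.01 (Treg), and in no *Odc* subset. *Tox*, needed for CD4 lineage development, was called higher in *Odc* TH1, TH2 and TH17 cells (2.07, 2.44 and 1.29) and lower in *Dohh* TH1, TH2 and Treg cells (-3.67, -2.81 and -3.37).

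Of 8 tested genes for corepressors that RUNX and ThPOK proteins recruit, 0 were called in TH1, TH17 and Treg cells of the *Odc* table by edgeR (5, 3 and 5 had an adjusted p below 0.05) and 1 in TH2 cells, while 1, 1, 2 and 1 were called lower in the *Dohh* subsets, beside 15.6% to 32.7% of all genes called in either direction. *Ncor1*, a nuclear corepressor, was called lower in all 4 *Dohh* subsets, by 1.01 (TH2) to 1.44 (TH17).

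Genes of the CD8 and cytotoxic program were called higher more often than lower in every comparison. Of 22 genes, 11, 9, 15 and 19 were called higher and 2, 3, 0 and 0 lower in TH1, TH2, TH17 and Treg cells of the *Odc* table (medians 1.02, 0.98, 2.20 and 2.56). For the *Dohh* subsets 18, 19, 18 and 19 were called higher and 1, 0, 0 and 0 lower (medians 3.30, 3.66, 4.43 and 3.81). Of all genes tested, 8.35% to 17.5% were called higher. The chemokine genes *Ccl3* and *Ccl4*, *Cd160* and *Gzmb*, which encodes granzyme B, were called higher in all 8 comparisons. *Gzmb* rose from a mean of 22.1 to 5504 CPM in *Dohh* Treg cells (7.96 ± 0.53) and from 92.8 to 2507 CPM in *Odc* Treg cells (4.76 ± 0.45). *Cd160*, a receptor of cytotoxic lymphocytes, rose by 2.61 (*Odc* TH2) to 5.79 (*Dohh* TH17). Cytotoxic genes are also expressed by NK and γδ T cells, and 1 gene, *Eomes*, is in both the cytotoxic and the NK list. Mean marker sums of both cell types were higher in KO than in WT cells of every subset. In *Dohh* KO TH2, TH17 and Treg cells, however, the NK sum was mostly *Fcgr3*, with *Ncr1*, *Klra4*, *Klra8* and *Klra9* low, as given above. Mean sums of myeloid markers and of basophil and mast cell markers were also higher in KO cells of every subset. The part of those cells in this result was not tested.

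Genes of helper function were called lower more often than higher in all *Dohh* subsets and in TH2, TH17 and Treg cells of the *Odc* table. Of 8 genes, 2, 1, 0 and 1 were called higher and 0, 2, 3 and 4 lower in TH1, TH2, TH17 and Treg cells of the *Odc* table, and 0, 0, 0 and 3 higher and 5, 3, 6 and 4 lower in the *Dohh* table. Of all genes tested, 11.3%, 13.6%, 7.21% and 10.1% were called lower in the *Odc* and 14.2%, 11.6%, 14.1% and 15.2% in the *Dohh* subsets, and in TH2 cells of the *Odc* table all genes were also called lower more often than higher. *Cd40lg*, the CD40 ligand by which helper cells activate B cells, fell in all 4 *Dohh* subsets, from a mean of 63.5 to 3.54 CPM in TH1 (-4.11 ± 0.44) and from 24.2 to 1.64 CPM in Treg cells (-3.88 ± 0.46). In the *Odc* table it was called lower in Treg cells (-1.11 ± 0.21) and was 113 CPM in both genotypes of TH1 cells (0.01 ± 0.20). The costimulatory receptor gene *Cd28* was called lower in *Odc* TH17 and Treg and in all *Dohh* subsets (-1.17 to -2.79), and the TNF receptor family genes *Tnfrsf18* and *Tnfrsf4* were called lower in 6 and 5 of 8 comparisons. The rest of the list was mixed. *Il4* was called higher in 3 comparisons and lower in 0, and *Il2* higher in 2 and lower in 1. *Icos* was called higher in 1 and lower in 0, and *Il21* higher in 1 and lower in 4.

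Across all libraries, the genes whose log2 CPM followed each member most closely in both tables were named as a description. Over 31 and 24 libraries, the Pearson correlation was 0.92 and 0.92 for *Cd4* with *Utrn*, 0.91 and 0.91 with *Fam8a1* and 0.91 and 0.90 with *Dcaf11*. For *Cd8a* it was 0.91 and 0.87 with *Itga1*, which encodes an integrin chain for collagen, 0.88 and 0.86 with *Srd5a3* and 0.85 and 0.87 with *Tlr2*. *Zbtb7b* was followed by *Samhd1* (0.94 and 0.94), *Kdm5b* (0.91 and 0.93) and *Pik3r4* (0.90 and 0.92), and *Runx3* by *Bend4* (0.86 and 0.90), *Vps37b* (0.86 and 0.84) and *Gm26517* (0.81 and 0.89). The closest genes to *Cd8b1* were less close, at 0.70 and 0.77 for *B4galt1*, 0.69 and 0.82 for *Aqp3* and 0.69 and 0.79 for *Lamc3*. *Cd8a* and *Cd8b1*, although neighbours, were not among each other's closest genes. The libraries share genotype and subset, so these values describe shared group differences as much as anything within a group.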

How the data were processed

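Per the labels and the study's methods, the authors sequenced TruSeq stranded mRNA libraries, mapped reads with STAR to mm10 and used featureCounts for gene-level counting. The deposited values are raw counts in 2 tables. Versions, annotation and strand setting are not given in the sources used here. Of 56 samples listed, 55 have a column, and 47310 of 47937 genes were matched to GENCODE GRCm38 by identifier.

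Counts were filtered with filterByExpr and fitted with edgeR 4.0.16 (R 4.3.3; TMM, robust quasi-likelihood, 1 mean for each of 8 groups per table, no replicate block). Calls needed more than 2-fold and a Benjamini-Hochberg adjusted p below 0.05, interactions and differences between effects the latter alone. Scripts were tested on simulated data. Alternatives were RLE factors, DESeq2 1.42.0, other low-count filters, the compared groups alone, a replicate block, glmTreat, adjusted p alone and each library left out. The samples are labelled replicates, and p-values measure the spread between them. The numbers were not taken to pair WT with KO libraries, since the correlation of their deviations was over 0.1 in only 7 of 15 pairs of the Odc table (-0.09 to 0.20) and 1 of 12 of the Dohh table (-0.03 to 0.14). WT libraries of 1 number did so across subsets of the Odc table (0.21 to 0.58). No 2 libraries were identical.

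The members and gene lists were chosen with earlier results of these data known. From each list at most 4 genes are described by their changes, those called in the most comparisons and, at ties, with the largest mean change. Other list genes are named only as part of a summed list, for a level at or near 0, or, in the helper list, with their counts of calls, after their values were seen. For each member the 3 genes of most similar pattern are named. Figures were drawn with matplotlib 3.10.9.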

Additional observations from a re-analysis of the deposited data

Results flagged for a closer look

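In 5 of 35 groups of 4 libraries, all in the *Odc* table, 1 library stood apart from the other 3 for a member. For independent groups of normally spread values, chance gives this in about 1 of 20. The 35 groups share libraries between members, so that rate is not set against the count found. In TH1 cells the values that stood apart were *Cd4* in KO replicate 1 (656 CPM, others 389.8 to 405), and *Cd4* (691 CPM, others 929.6 to 963), *Cd8a* (22.1 CPM, others 3.27 to 6.10) and *Cd8b1* (12.1 CPM, others 4.55 to 5.63) in WT replicate 4. In Treg cells it was *Cd8b1* in WT replicate 2 (9.92 CPM, others 11.6 to 12.0).

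The effect of genotype differed between subsets by the interaction test of edgeR for *Cd8a* (adjusted p = 0.00232), *Zbtb7b* (0.000992) and *Runx3* (0.000237) in the *Odc* table, and for *Cd4* (0.0361), *Cd8a* (0.000277), *Cd8b1* (0.0382) and *Runx3* (0.00679) in the *Dohh* table. The *Odc* effect minus the *Dohh* effect on *Cd4* was 3.59 in TH1, 2.61 in TH2, 2.83 in TH17 and 3.89 in Treg cells on the log2 scale. It was -3.19 in TH2 and -2.86 in TH17 cells for *Cd8a*, 1.68 in TH1 cells for *Zbtb7b* and -1.15 in TH2 cells for *Runx3*.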

How the results depend on the processing

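Over the alternatives, 580 fold changes of the members kept their direction and side of the threshold, 23 became calls, 20 lost a call and 12 turned in sign, none of these called. *Cd4* and *Zbtb7b* in all *Dohh* subsets, *Cd8a* in *Dohh* TH17 and Treg cells, *Cd8a* in *Odc* Treg cells and *Zbtb7b* in *Odc* TH17 and Treg cells were called throughout. With adjusted p alone, 3 members passed in TH1 and 4 each in TH2, TH17 and Treg cells of the *Odc* table, beside 56.8%, 59.2%, 47.8% and 59.8% of all genes. Testing the 2-fold change itself left 0 in *Odc* TH2, 1 in *Odc* TH17 and 2 in *Dohh* TH1 and TH2 cells, where *Cd8b1* lost both of its calls and *Cd8a* its TH2 call. DESeq2 called 1 member in *Odc* TH17 cells, as did edgeR with no low-count filter. The numbers were not taken to pair WT with KO libraries. With the number as a replicate block, 1 member was called in *Odc* TH2 cells, where *Cd4* lost its call at -0.89. The other counts stayed as they were, and *Cd8b1* in *Odc* TH1 cells turned to -0.016. With the replicate block within genotype, 5 members differed among *Odc* WT subsets, and the share of all genes that did so was not computed. The causes were not tested.

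Leaving out each library in turn gave 0 to 1 called members in *Odc* TH1 (up to 2 without WT replicate 4 in all subsets), 1 to 3 in TH2 and 1 to 3 in TH17 cells. It moved *Cd8b1* from -0.54 to 0.49 in *Odc* TH1, from -0.030 to 0.46 in *Odc* TH17 and from -0.17 to 0.14 in *Dohh* Treg cells, *Cd8a* from -0.27 to 1.33 in *Odc* TH1 and *Runx3* from -0.21 to 0.086 in *Dohh* TH1 cells. Without KO replicate 1 in all *Odc* subsets, *Cd8a* in TH1 was -0.25 and *Cd8b1* was -0.52 in TH1 and -0.029 in TH17 cells. The standard error of a member was largest for *Cd8a* in *Odc* TH2 cells (0.92), where libraries held as few as 9 counts.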

Other observations

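Genes next to the members did not follow them throughout. *Lag3*, a CD4-related receptor gene 16140 bases from *Cd4*, was called lower in *Odc* TH1 (-1.05) and TH2 cells (-1.15) and higher in *Dohh* TH17 (1.78) and Treg cells (2.22), where *Cd4* was lower. *Gpr162*, 709 bases from *Cd4*, was called lower in *Odc* Treg (-1.64), *Dohh* TH17 (-1.996) and *Dohh* Treg cells (-2.56) at WT means of 3.57 to 4.69 CPM. *Rmnd5a*, 9461 bases from *Cd8a*, was called lower in *Dohh* TH1 (-1.16) and TH2 cells (-1.22) and was not called in Treg cells of either table, where *Cd8a* rose (-0.56 and -0.88). *Clic4*, 35979 bases from *Runx3*, and *Syf2*, 183104 bases from it, were called in no comparison.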
